A study of Homo sapiens with 7 samples.

Results

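The genes described here are the ephrins and their Eph receptors, and the semaphorins with their plexin and neuropilin receptors, 53 of the 23262 genes with values. Members were taken by symbol alone: EFNA1 to EFNA5, EFNB1 to EFNB3, EPHA and EPHB genes, SEMA genes, PLXN genes, NRP1 and NRP2. They comprise 5 ephrin-A and 3 ephrin-B ligands, 9 EphA and 5 EphB receptors, 20 semaphorins, 9 plexins and 2 neuropilins. RNA of human embryonic stem cells (hESC) of the H3 hESC NKX2-5eGFP/alpha-MHC-mCherry line was sequenced before and during differentiation toward heart muscle, with 1 library per group. The line reports NKX2-5, an early heart transcription factor gene, through eGFP, and alpha-MHC, the cardiac myosin heavy chain, through mCherry. All groups therefore carry both reporters. The reporter name carries a number that counts upward from sample to sample in the labels, and the samples are treated here as 1 line.

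The groups are undifferentiated hESC on day 0, CD13+/ROR2+ and CD13-/ROR2- cells of day 3, NKX2-5+ and NKX2-5- cells of day 7, and NKX2-5+ cells of day 14 with (aMHC+) or without (aMHC-) the alpha-MHC reporter signal, as the labels give it. CD13 is the surface peptidase encoded by ANPEP, and ROR2 a receptor of WNT ligands. The day 7 and day 14 fractions are also described as CD13+/ROR2+, without a statement of the day on which that gate was set. The labels call the day 3 CD13+/ROR2+ cells mesoderm progenitors, the CD13-/ROR2- cells endoderm progenitors, the day 7 NKX2-5+ cells cardiac progenitors and the day 14 aMHC+ cells cardiomyocytes, and leave NKX2-5- and aMHC- as unknown.

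Ephrins are ligands held on the cell surface, the A type by a lipid anchor and the B type by a membrane-spanning segment. They bind Eph receptors, a family of receptor tyrosine kinases, on touching cells, and the contact can signal into both cells to drive repulsion, adhesion or the sharpening of tissue boundaries. Semaphorins are secreted or membrane-bound proteins that steer moving cells and axons through plexins. Most secreted class 3 semaphorins need a neuropilin as co-receptor, and neuropilins also bind VEGF. In the embryo these systems take part in somite boundaries, artery and vein identity, and the septation of the outflow tract of the heart.

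Levels are in FPKM (fragments scaled to transcript length and to mapped reads), which allow genes to be compared per length. With 1 library per group there is no spread between replicates and no test. Calls of higher or lower needed a ratio of (FPKM + 1) of 4 or more, a log2 ratio of 2, with 5 FPKM or more in the higher library. Folds given below are simple FPKM quotients. Relative to hESC, depth was 2.62 times in day 3 CD13+/ROR2+, 1.31 in CD13-/ROR2-, 0.603 in day 7 NKX2-5+, 1.99 in day 14 aMHC+ and 3.1 in aMHC-, read from the steps between low values. The estimate for day 7 NKX2-5- was not sharp, and values near 1 FPKM have the least support in day 7 NKX2-5+, the shallowest library. In the CD13-/ROR2- library 1 of 6 endoderm markers reached 1 FPKM (SOX17, at 2.71, with FOXA2 at 0.0874), against 3 of 6 in CD13+/ROR2+. These markers go against the endoderm label. The 6 pluripotency markers of CD13-/ROR2- summed to 672 FPKM beside 664 in hESC. Of these, POU5F1 (64.8 against 154) and NANOG (27.5 against 36.5) were lower than in hESC and the others higher. Its 6 mesoderm markers summed to 127 FPKM, beside 1.73 in hESC. Of the genes behind the gates, ANPEP was at 12.0 against 0.984 FPKM and ROR2 at 20.6 against 3.16 in the day 3 pair, and NKX2-5 at 70.2 against 1.18 in the day 7 pair. MYH6, which encodes alpha-MHC, was at 342 FPKM in day 14 aMHC+ and 136 in aMHC- (2.52-fold), so the fraction labelled aMHC- held abundant transcript of the gated gene. Day 7 NKX2-5+ had 531 and NKX2-5- 43.4. All 6 cardiomyocyte markers passed 1 FPKM in the day 7 and day 14 libraries. These are bulk samples, in which fewer cells of a type and less RNA per cell cannot be told apart.

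Of the 53, 18 reached 1 FPKM in every library (34.0%, beside 33.4% of all genes), 6 stayed under 1 FPKM in all and 29 passed it in some. The share of members at 5 FPKM or more was 13.2% in hESC (beside 21.0% of all genes), 30.2% in day 3 CD13+/ROR2+ (21.8%) and 18.9% in CD13-/ROR2- (21.3%). On day 7 it was 13.2% for NKX2-5+ (14.6%) and 28.3% for NKX2-5- (19.9%), and on day 14 it was 30.2% for aMHC+ (21.6%) and 43.4% for aMHC- (23.5%). The members thus lay above the share of all genes in 4 of the 7 libraries and below it in the others. The summed level of all members was 150 FPKM in hESC, 272 and 237 in day 3 CD13+/ROR2+ and CD13-/ROR2-, 115 and 243 in day 7 NKX2-5+ and NKX2-5-, and 228 and 314 in day 14 aMHC+ and aMHC-. The members with the highest level changed with the stage. SEMA6A led in hESC and in day 3 CD13-/ROR2-, PLXNA2 in day 3 CD13+/ROR2+, NRP2 in both day 7 fractions and EFNB2 in both day 14 fractions. The heat map of all members shows this change of the top member, which did not replace the other classes. In day 3 CD13+/ROR2+ the semaphorin SEMA6D (33.1 FPKM) was close to PLXNA2 (34.3). In aMHC- PLXNA1 (22.2) and NRP2 (17.9) followed EFNB2 (30.4).

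**Figure D1:**
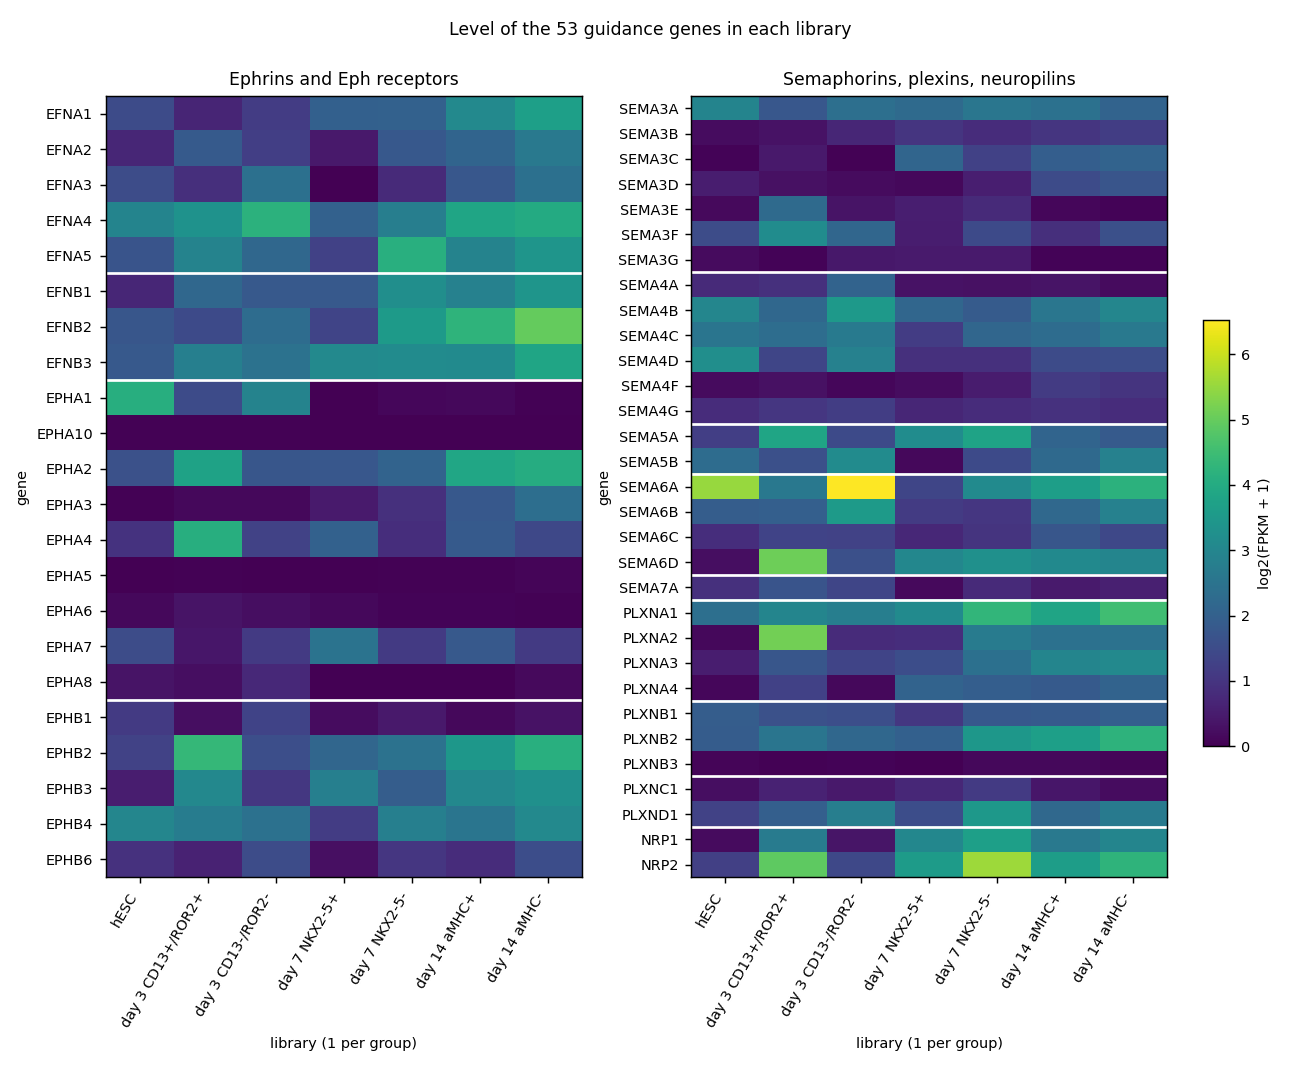
Level of each of the 53 guidance genes (rows, grouped by class with white lines between classes) in the 7 libraries (columns), as log2(FPKM + 1) on a colour scale. The brightest cell is SEMA6A in day 3 CD13-/ROR2- (91.2 FPKM), and PLXNA2, SEMA6D, NRP2, EPHA4 and EPHB2 are bright in day 3 CD13+/ROR2+.

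The day 3 comparison asks what CD13 and ROR2 separate. Here 8 members were called higher in CD13+/ROR2+: the plexin PLXNA2, both neuropilins, the Eph receptors EPHA2, EPHA4 and EPHB2, and the semaphorins SEMA5A and SEMA6D. Only SEMA6A was called lower. Of the 23 members with at least 5 FPKM in either library, 34.8% were higher, where 3.69% of all genes were, and 4.35% were lower, where 2.54% of all genes were. Against hESC, 9 of 20 such members were higher in CD13+/ROR2+ (45.0%, beside 4.5% of all genes of that level) and 2 lower (10.0%, beside 2.54%). These are the same 8 genes with EPHB3, and SEMA6A with EPHA1, and both comparisons use the same CD13+/ROR2+ library. In CD13-/ROR2- over hESC 0 of 12 were called higher or lower, where 1.45% of all genes were higher and 1.17% lower. Of 37 members of at least 1 FPKM, 30 were above hESC there by smaller ratios (81.1%, beside 48.1% of all genes of that level), with a median log2 ratio of 0.46. EPHA2, at a log2 ratio of 2.01 between the day 3 fractions, stood at 1.92 after median-ratio scaling, and with a pseudocount of 5 the 8 higher genes became 3, PLXNA2, NRP2 and SEMA6D. The median log2 ratio of the members was 0.64 over hESC, beside -0.03 over all genes of at least 1 FPKM, and 0.18 beside 0.02 between the day 3 fractions, since members lay on both sides. Marker genes differed too. The 6 pluripotency markers summed to 138 FPKM in CD13+/ROR2+ (4 of 6 at 1 FPKM or more) against 672 in CD13-/ROR2- (6 of 6), with 0 of them at 0, and the 6 mesoderm markers to 640 against 127, also with 0 at 0. Of the mesoderm markers, T went the other way, at 7.32 FPKM against 18.7. The 6 endoderm markers summed to 23.3 FPKM against 3.43, mostly SOX17 (17.8 against 2.71), with TTR at 0 in both. AFP and SERPINA1, both under 1 FPKM, went the other way. The part of these marker lists in the member differences was not tested.

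PLXNA2, a class A plexin that serves semaphorins of class 3 with a neuropilin and of class 6 directly, stood at 0.0966 FPKM in hESC and, on day 3, at 34.3 in CD13+/ROR2+ against 0.744 in CD13-/ROR2-. On day 7 it was at 0.819 in NKX2-5+ and 5.55 in NKX2-5-, and on day 14 at 4.36 in aMHC+ and 4.5 in aMHC-. The day 3 mesoderm library therefore exceeded every other, by 46.1-fold over its day 3 counterpart (log2 ratio 4.34). NRP2, a neuropilin of class 3 semaphorins and of VEGF-C, stood at 1.34 FPKM in hESC and, on day 3, at 28.9 in CD13+/ROR2+ against 1.69 in CD13-/ROR2- (17.1-fold). Later it was at 10.9 and 46.2 in day 7 NKX2-5+ and NKX2-5-, and at 11.3 and 17.9 in aMHC+ and aMHC-. Unlike PLXNA2, it was highest in day 7 NKX2-5-. NRP1, the neuropilin of SEMA3A and VEGF-A, was below NRP2 in every library. It was at 0.14 FPKM in hESC and, on day 3, at 5.55 in CD13+/ROR2+ against 0.285 in CD13-/ROR2-. Later NRP1 was at 7.18 and 11.9 in day 7 NKX2-5+ and NKX2-5-, and at 5.26 and 6.89 in day 14 aMHC+ and aMHC-. In day 7 NKX2-5+ it was slightly above its day 3 CD13+/ROR2+ level, whereas NRP2 was below its own. Both neuropilins thus stayed above their hESC and CD13-/ROR2- levels in every later library.

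SEMA6D, a membrane-bound semaphorin that binds PLXNA1 and is known from chick heart tube morphogenesis, stood at 0.186 FPKM in hESC and, on day 3, at 33.1 in CD13+/ROR2+ against 2.04 in CD13-/ROR2- (16.2-fold). On day 7 it was at 7.14 in NKX2-5+ and 8.7 in NKX2-5-, and on day 14 at 7.53 in aMHC+ and 6.81 in aMHC-. SEMA6A, its paralog and a ligand of PLXNA2 and PLXNA4, ran the other way, at 44.5 FPKM in hESC and, on day 3, 5.17 in CD13+/ROR2+ against 91.2 in CD13-/ROR2- (17.6-fold, log2 ratio -3.9). On day 7 it was at 1.59 in NKX2-5+ and 7.68 in NKX2-5-, and on day 14 at 11.7 in aMHC+ and 17.4 in aMHC-. SEMA6A alone made up 92.2% of the class 6 sum in hESC and 86.6% in CD13-/ROR2-, while SEMA6D made up 77.6% in CD13+/ROR2+, so the class 6 sums of 48.3, 105 and 42.6 FPKM hide an exchange of members. SEMA5A, a membrane semaphorin with thrombospondin repeats, measured 1.31 FPKM in hESC, 13.2 and 1.77 in day 3 CD13+/ROR2+ and CD13-/ROR2-, 8.03 and 12.8 in day 7 NKX2-5+ and NKX2-5-, and 3.27 and 2.6 in aMHC+ and aMHC-. It was about as abundant in day 7 NKX2-5- as in the day 3 mesoderm and lowest in hESC.

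Among Eph receptors, EPHA4, which binds ephrins of both types, measured 0.949 FPKM in hESC, 16.1 and 1.46 in day 3 CD13+/ROR2+ and CD13-/ROR2-, 3.07 and 0.816 in day 7 NKX2-5+ and NKX2-5-, and 2.59 and 1.65 in day 14 aMHC+ and aMHC-. Its high level was seen in the day 3 mesoderm library alone of the 7. EPHB2, a receptor of B-type ephrins, was at 1.46, 19.5 and 1.99 FPKM in hESC, CD13+/ROR2+ and CD13-/ROR2-, then 3.49 and 4.51 in NKX2-5+ and NKX2-5- and 9.99 and 16.4 in aMHC+ and aMHC-. EPHA2, a main receptor of ephrin-A1, was at 2.09, 12.5 and 2.36 FPKM in the same first 3 libraries, 2.42 and 3.25 on day 7 and 13.6 and 15.6 on day 14. EPHB2 and EPHA2 therefore shared a course, high in the day 3 mesoderm, lower in both day 7 fractions and higher again on day 14. Not every step was called. From the day 3 mesoderm to NKX2-5+ and NKX2-5-, log2 ratios were -2.19 and -1.89 for EPHB2 and -1.98 and -1.67 for EPHA2. From NKX2-5+ to aMHC+ they were 1.29 for EPHB2 and 2.1 for EPHA2. After median-ratio scaling the called ratios of -2.19 and 2.1 became -1.61 and 1.62. EPHB3 stood at 0.442 FPKM in hESC and, on day 3, at 7.21 in CD13+/ROR2+ against 1.09 in CD13-/ROR2-, where the log2 ratio of 1.97 was just short of 2, and at 6.09, 2.77, 7.29 and 8.61 in NKX2-5+, NKX2-5-, aMHC+ and aMHC-. Just inside that limit was EPHA2, at 2.01. EPHA1, an A-type receptor, stood at 16.2 FPKM in hESC and, on day 3, at 1.83 in CD13+/ROR2+ against 6.51 in CD13-/ROR2-. It was listed at 0 in day 7 NKX2-5+ and stood at 0.0798, 0.108 and 0.0246 in NKX2-5-, aMHC+ and aMHC-, so that it belonged to the early libraries.

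**Figure D2:**
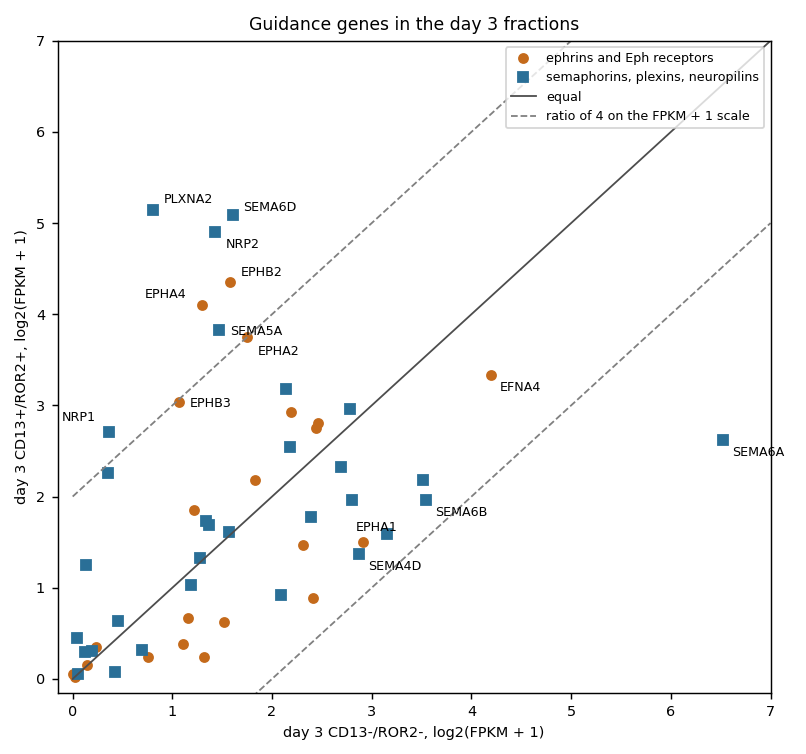
Each guidance gene in day 3 CD13-/ROR2- (x axis) and CD13+/ROR2+ (y axis), both as log2(FPKM + 1), with circles for ephrins and Eph receptors and squares for semaphorins, plexins and neuropilins; the solid line marks equal levels and the dashed lines a ratio of 4. The 8 genes above the upper line include PLXNA2 (34.3 against 0.744 FPKM) and NRP2 (28.9 against 1.69), and SEMA6A (5.17 against 91.2) lies alone beyond the lower one.

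Several other semaphorins were on the CD13-/ROR2- side without passing the rule. SEMA6B stood at 2.78 FPKM in hESC and, on day 3, at 2.9 in CD13+/ROR2+ against 10.7 in CD13-/ROR2-, and later at 1.21, 1.03, 3.62 and 6.28 in NKX2-5+, NKX2-5-, aMHC+ and aMHC-. SEMA4B, a class 4 membrane semaphorin, was at 6.98, 3.52 and 10.4 FPKM in these 3 libraries and 3.47, 2.67, 4.89 and 7.03 in NKX2-5+, NKX2-5-, aMHC+ and aMHC-. SEMA4D, the ligand of PLXNB1, was at 8.27 FPKM in hESC and, on day 3, 1.59 in CD13+/ROR2+ against 6.31 in CD13-/ROR2-, and stayed under 2 in the later libraries. SEMA5B was at 7.91 FPKM in CD13-/ROR2- against 2.02, its highest level of the 7, with the lowest, 0.1, in day 7 NKX2-5+. SEMA4A was at 3.25 FPKM against 0.887, also its highest level, and lowest at 0.133 in aMHC-. SEMA4C was at 5.47 FPKM against 4.02, again its highest level, and lowest at 1.23 in day 7 NKX2-5+. Class 4 as a whole summed to 21.7 FPKM in hESC and, on day 3, 11.3 in CD13+/ROR2+ against 26.8 in CD13-/ROR2-. All of these were lower in the sorted mesoderm library than in its counterpart, in contrast to SEMA3E (3.78 against 0.28 FPKM), the ligand of PLXND1, SEMA3F (8.05 against 3.42) and SEMA7A (2.23 against 1.58). SEMA7A was highest in CD13+/ROR2+ and lowest in day 7 NKX2-5+, at 0.127 FPKM.

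Promoter sequences are shown for PLXNA2 and NRP2, which were higher in day 3 CD13+/ROR2+ than in hESC, and for EPHA1, which was lower, since these genes have 1 start in the RefSeq table (GRCh38.p14, a later build than that of the expression values). Each is the 250 bases before the start, read 5′ to 3′ on the gene's strand. They are PLXNA2 at chr1:208244385-208244634 on the minus strand, NRP2 at chr2:205682251-205682500 on the plus strand and EPHA1 at chr7:143408857-143409106 on the minus strand. Capitals mark GGGCGG, the core of the GC box bound by SP and KLF factors, or its complement CCGCCC, and in EPHA1 also ATTGG, the complement of the CCAAT box.
PLXNA2: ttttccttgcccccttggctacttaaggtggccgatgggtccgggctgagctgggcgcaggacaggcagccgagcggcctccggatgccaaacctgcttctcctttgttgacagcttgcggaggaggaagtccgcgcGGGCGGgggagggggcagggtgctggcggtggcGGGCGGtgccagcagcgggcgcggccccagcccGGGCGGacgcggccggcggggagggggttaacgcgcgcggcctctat
NRP2: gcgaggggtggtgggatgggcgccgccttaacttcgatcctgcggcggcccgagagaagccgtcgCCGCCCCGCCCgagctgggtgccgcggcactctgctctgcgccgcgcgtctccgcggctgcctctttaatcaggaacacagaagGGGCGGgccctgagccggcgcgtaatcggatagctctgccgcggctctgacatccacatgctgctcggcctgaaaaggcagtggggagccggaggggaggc
EPHA1: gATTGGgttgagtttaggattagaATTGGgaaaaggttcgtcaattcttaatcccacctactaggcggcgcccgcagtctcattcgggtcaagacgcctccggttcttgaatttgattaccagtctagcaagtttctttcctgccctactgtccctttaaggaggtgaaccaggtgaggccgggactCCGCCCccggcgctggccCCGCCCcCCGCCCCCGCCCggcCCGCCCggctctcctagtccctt
GGGCGG occurred on either strand in all 3, at the bases from -113, -80 and -47 of PLXNA2, and none of the marked matches overlaps a match of another motif. In NRP2 a pair of GGGCGG matches shares 1 base. GC content was 72.4%, 70.0% and 59.2%, with 27, 29 and 17 CpG pairs. The table held 47 of the 53 members, 30 of them with 1 start. Of these 30, 27 had GGGCGG (90.0%, beside 56.5% of 11786 protein-coding genes with 1 start), 13 CCAAT (43.3%, beside 35.4%), 4 GATAA (13.3%, beside 16.8%), 1 TATAAA (3.33%, beside 10.2%) and 0 the T-box element core TCACAC (beside 8.19%), each searched on both strands in the same 250 bases. Their median was 23 CpG pairs and 68.8% GC, beside 17 and 62.4% for the coding genes. GGGCGG was thus common among the members, and its part in the day 3 differences was not tested.

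From day 3 CD13+/ROR2+ to day 7, PLXNA2 and EPHA4 were called lower in both day 7 fractions. In NKX2-5+, 5 of 16 members were lower (31.2%, beside 9.09% of all genes) and 0 higher (beside 4.38%). They were PLXNA2 (0.819 against 34.3 FPKM, 41.9-fold), EPHA4 (3.07 against 16.1), EPHB2 (3.49 against 19.5), SEMA6D (7.14 against 33.1) and SEMA3F, a secreted semaphorin that signals through NRP2. SEMA3F measured 1.85 FPKM in hESC, 8.05 and 3.42 in day 3 CD13+/ROR2+ and CD13-/ROR2-, 0.429 and 1.75 in NKX2-5+ and NKX2-5-, and 0.843 and 2.02 in aMHC+ and aMHC-. In NKX2-5-, 2 of 20 members were lower (10.0%, beside 3.69% of all genes), PLXNA2 at 5.55 and EPHA4 at 0.816 FPKM, and 1 was higher (5.0%, beside 5.35%), EFNB2 at 10.8 against 1.77. The share of members higher there is near that of all genes. The median log2 ratio of members was -0.59 in NKX2-5+ beside -0.53 over all genes, and 0.02 in NKX2-5- beside -0.17. NRP2 and SEMA5A kept levels near or above those of day 3 in NKX2-5-, at 46.2 and 12.8 FPKM.

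Levels in day 7 NKX2-5+ lay lower in general, with a median-ratio scaling shift of -0.69 (log2) against the day 3 mesoderm. After that scaling EPHA4 (-1.51), EPHB2 (-1.61) and SEMA6D (-1.44) were short of the limit of 2, and PLXNA2 and SEMA3F passed it. A few low members had their highest value in day 7 NKX2-5+, by little for SEMA3C and PLXNA4. EPHA7 was at 4.63 FPKM there against 0.304 in the day 3 mesoderm, 1.14 in NKX2-5- and at most 2.51 elsewhere. SEMA3C, the secreted semaphorin of outflow tract septation, was at 3.39 FPKM in NKX2-5+ and 1.41 in NKX2-5-, between 0.0279 and 0.363 in the 3 earlier libraries, and at 2.84 and 3.23 in aMHC+ and aMHC-. PLXNA4 was at 3.2 and 2.86 FPKM in the day 7 fractions against 1.38 in the day 3 mesoderm and 0.0844 in hESC, and nearly as high on day 14, at 2.63 in aMHC+ and 3.19 in aMHC-. None of these 3 reached 5 FPKM, so they could not be called, although the log2 ratio of EPHA7 over the day 3 mesoderm was 2.11.

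The day 7 pair asks what the NKX2-5 reporter separates. Of 16 members, 2 were lower in NKX2-5+ (12.5%, beside 5.42% of all genes), both ephrin ligands, and 0 were higher (beside 2.03%). EFNA5, an ephrin-A of repulsive guidance, measured 2.24 FPKM in hESC, 6.63 and 3.57 in day 3 CD13+/ROR2+ and CD13-/ROR2-, 1.41 in NKX2-5+, 16.5 in NKX2-5-, and 6.59 and 9.64 in aMHC+ and aMHC-. It was highest in NKX2-5- and lowest in NKX2-5+ (11.8-fold). EFNB2, the ephrin of arterial endothelium and ligand of EPHB4, was at 2.36, 1.77 and 3.97 FPKM in hESC, CD13+/ROR2+ and CD13-/ROR2-, then 1.51 and 10.8 in NKX2-5+ and NKX2-5-, and 18 and 30.4 in aMHC+ and aMHC-. Its log2 ratio of -2.24 in the day 7 pair became -1.99 after median-ratio scaling (shift -0.43), which ends the call. Further members of at least 5 FPKM with quotients of 4 or more that missed the limit on the (FPKM + 1) scale were NRP2 (10.9 against 46.2), PLXND1 (1.93 against 10.1), PLXNA2 (0.819 against 5.55), SEMA6A (1.59 against 7.68), and EPHB4 (1.23 against 6.1). Lower in level, EPHA7 was 4.07-fold higher in NKX2-5+. Other members of low level went the other way, among them SEMA5B (17.6-fold) and EFNA2 (6.92-fold). The median log2 ratio of the members was -0.74, beside -0.38 over all genes, and -0.45 after scaling.

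PLXND1, a plexin of endothelial cells and receptor of SEMA3E, measured 1.42 FPKM in hESC, 2.9 and 5.95 in day 3 CD13+/ROR2+ and CD13-/ROR2-, 1.93 in NKX2-5+, 10.1 in NKX2-5-, and 3.62 and 5.31 in aMHC+ and aMHC-. Among plexins of at least 1 FPKM in either day 3 fraction, it was the one with the lower level in CD13+/ROR2+. Markers of other cell types moved with these genes. All 8 endothelial markers passed 1 FPKM in NKX2-5- (summed level 41.1 FPKM) and 3 of 8 in NKX2-5+ (9.96), with 0 of them listed at 0 in either. The 8 mesenchymal markers summed to 703 FPKM in NKX2-5- and 52.0 in NKX2-5+, and the 6 endoderm markers to 171 and 23.3, with FOXA2 and SOX17 at 0 in NKX2-5+. Their part in the differences of EFNA5, EFNB2, NRP2 and PLXND1 was not tested. Of 7 neural markers, 2 passed 1 FPKM in NKX2-5+ and 3 in NKX2-5-, with summed levels of 3.97 and 7.14 FPKM and ELAVL4 and NEUROD1 at 0 in both.

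**Figure D3:**
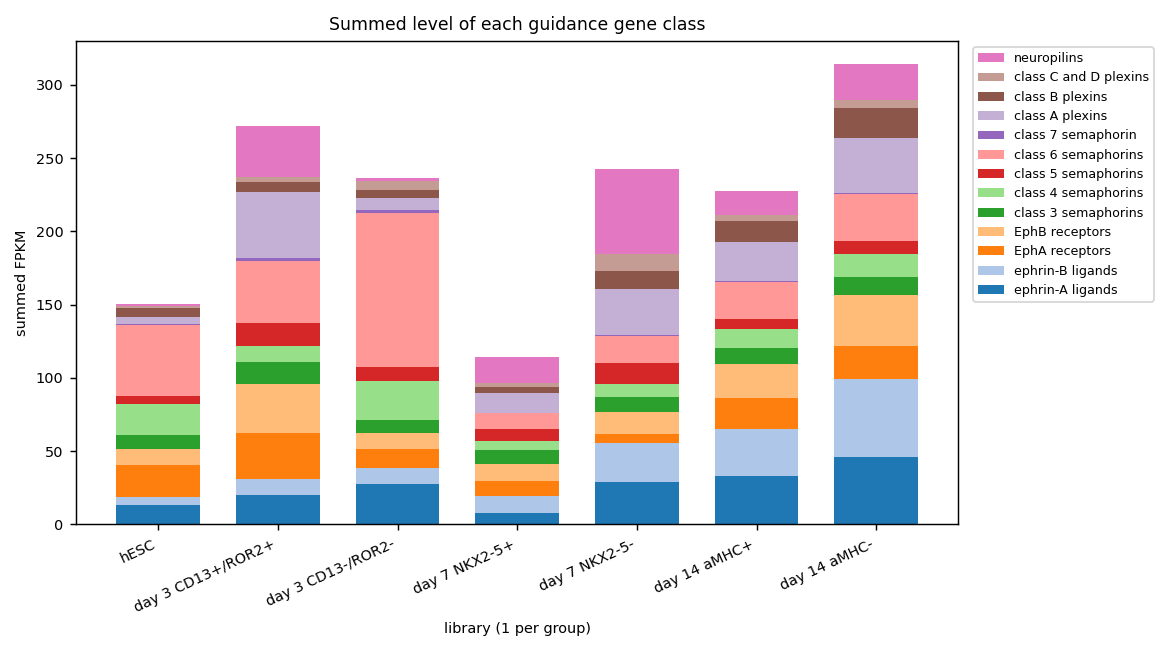
Summed FPKM of each of the 13 guidance gene classes (colours) in each library (bars, 1 library per group). Class 6 semaphorins are the largest piece of the hESC and day 3 CD13-/ROR2- bars (48.3 and 105 FPKM), neuropilins reach 58.1 FPKM in day 7 NKX2-5-, and ephrin-B ligands reach 53.3 in day 14 aMHC-.

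By day 14, ephrin ligands were prominent. The 3 ephrin-B genes summed to 5.53 FPKM in hESC, 11.3 and 11.0 in the day 3 fractions, 11.5 and 27.0 in day 7 NKX2-5+ and NKX2-5-, and 32.0 and 53.3 in day 14 aMHC+ and aMHC-. In aMHC+ over day 7 NKX2-5+, 3 of 17 members were higher (17.6%, beside 7.68% of all genes), namely EFNB2 (11.9-fold), EPHA2 (5.63-fold) and SEMA6A (7.36-fold), and 0 were lower (beside 0.829%). The scaling shift was 0.61, after which EPHA2 (1.62) and SEMA6A (1.87) were short of the limit and EFNB2 remained. The median log2 ratio of the 38 members of at least 1 FPKM was 1.02, beside 0.46 over all genes of that level, and 0.63 beside 0 after scaling.

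The other ephrins were lower in level than EFNB2 on day 14. EFNA1, the ligand of EPHA2, measured 1.8 FPKM in hESC, 0.587 and 1.23 in day 3 CD13+/ROR2+ and CD13-/ROR2-, 2.99 and 3.05 in NKX2-5+ and NKX2-5-, and 7.37 and 11.9 in aMHC+ and aMHC-. EFNA4 was at 6.72, 9.1 and 17.3 FPKM in hESC, CD13+/ROR2+ and CD13-/ROR2-, 3.05 and 5.96 in the day 7 fractions and 13.2 and 15 in those of day 14. EFNB3 was at 2.55, 6.01 and 4.49 FPKM in the first 3 libraries, 7.46 and 7.86 on day 7 and 7.72 and 13.3 on day 14. EFNA1 and EFNB3 were highest in aMHC-, whereas EFNA4 had its highest level in day 3 CD13-/ROR2-. EFNB1, an X-linked B-type ephrin, was between 0.628 FPKM (hESC) and 9.56 (aMHC-), EFNA2 between 0.353 (day 7 NKX2-5+) and 5.19 (aMHC-), and EFNA3 between a listed 0 (day 7 NKX2-5+) and 4.33 (aMHC-).

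Some plexins also had their highest level in aMHC-. PLXNA1, a class A plexin, measured 4.23 FPKM in hESC, 6.81 and 5.9 in day 3 CD13+/ROR2+ and CD13-/ROR2-, 7.79 and 18.8 in NKX2-5+ and NKX2-5-, and 13.1 and 22.2 in aMHC+ and aMHC-. PLXNB2, a receptor of class 4 semaphorins, was at 2.75, 4.85 and 3.53 FPKM in hESC, CD13+/ROR2+ and CD13-/ROR2-, 3.03 and 9.97 in NKX2-5+ and NKX2-5-, and 11.8 and 17.6 in aMHC+ and aMHC-. For both, aMHC- was highest, hESC lowest, and NKX2-5- above NKX2-5+. The same held for PLXNA3 at lower levels, with 0.44 FPKM in hESC, 1.89 in NKX2-5+, 4.28 in NKX2-5- and 7.44 in aMHC-. None of these plexins was called in any comparison.

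Within day 14, where both fractions are NKX2-5+, 0 of 23 members were called higher in aMHC+ (beside 0.648% of all genes) and 0 lower (beside 0.35%). No gene reached even a 2-fold quotient among those of at least 5 FPKM, the largest being EFNB3 (7.72 against 13.3 FPKM) and SEMA6B (3.62 against 6.28), each 1.73-fold. The small differences lay mostly to one side. Of 40 members of at least 1 FPKM, 33 were lower in aMHC+ and 17.5% were higher, beside 30.1% of all genes of that level. Their median log2 ratio was -0.39 beside -0.16 over all genes, and -0.21 beside 0.01 after median-ratio scaling. The mesenchymal markers summed to 354 FPKM in aMHC+ and 727 in aMHC- with 0 of 8 at 0. Most of this was COL1A1 (130 and 256 FPKM) and COL3A1 (188 and 409). PDGFRA was nearly equal (6.68 and 6.75), and DCN was higher in aMHC+ (1.97 against 1.44). The cardiomyocyte markers summed to 5224 and 1764, while the endothelial markers summed to 1.74 and 3.42 with PECAM1 at 0 in both and PLVAP at 0 in aMHC+. The part of these marker lists in the offset was not tested.

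**Figure D4:**
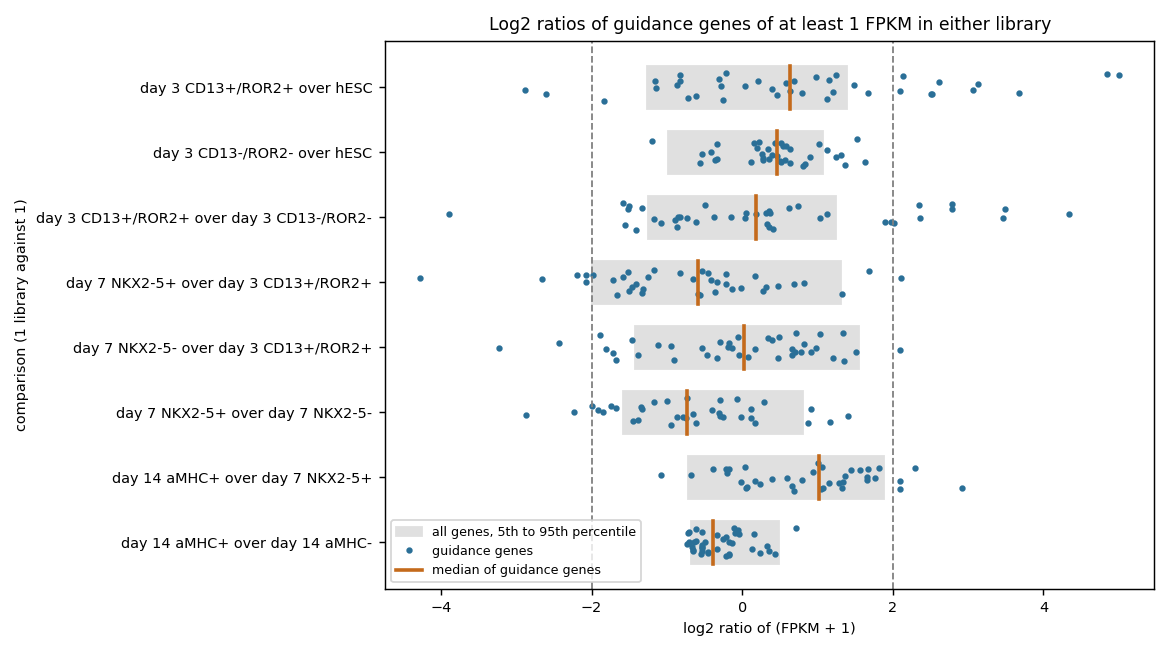
Log2 ratio of (FPKM + 1) in each of the 8 comparisons for guidance genes that reach 1 FPKM in one library or both (dots, spread vertically at random), with their median (vertical bar), the 5th to 95th percentile of all genes of that level (grey box) and the limits of -2 and 2 (dashed). Dots lie far outside the grey box in day 3 CD13+/ROR2+ over hESC and over CD13-/ROR2- (PLXNA2 at 5.01 and 4.34), and the day 14 pair has no dot beyond the limits.

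Ligands were set beside a receptor each is known to bind. EFNA1 and EPHA2, and EFNB2 and EPHB4, had their highest levels in the same library, day 14 aMHC-, and the other pairs in different ones. That library was the highest of 36.6% of members and 26.3% of all genes of at least 2 FPKM. Only 1 receptor was taken per ligand. EPHB2 and EPHA4, which also bind B-type ephrins, were highest in day 3 CD13+/ROR2+. For EPHB4 and EPHA2 the margin was small. EPHB4 was at 7.4 FPKM there against 7.0 in hESC, and EPHA2 at 15.6 against 13.6 in aMHC+. On day 3, SEMA6A was abundant in CD13-/ROR2- (91.2 FPKM) and its receptor PLXNA2 in CD13+/ROR2+ (34.3), and each was low where the other was high. EFNA1 (0.587 FPKM) and EPHA2 (12.5) stood far apart in CD13+/ROR2+, and both were at their highest in aMHC-, at 11.9 and 15.6. EFNB2 varied by 20.1-fold over the libraries and its receptor EPHB4 by 6.0-fold, from 1.23 FPKM in day 7 NKX2-5+ to 7.4 in aMHC-. SEMA6D and PLXNA1 had their highest levels in day 3 CD13+/ROR2+ and in aMHC-, and SEMA3E and PLXND1 in day 3 CD13+/ROR2+ and day 7 NKX2-5-. SEMA3F and its co-receptor NRP2 were both higher in the day 3 mesoderm than in CD13-/ROR2-, at 8.05 and 28.9 FPKM, and SEMA3F was low (1.75) where NRP2 was highest.

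**Figure D5:**
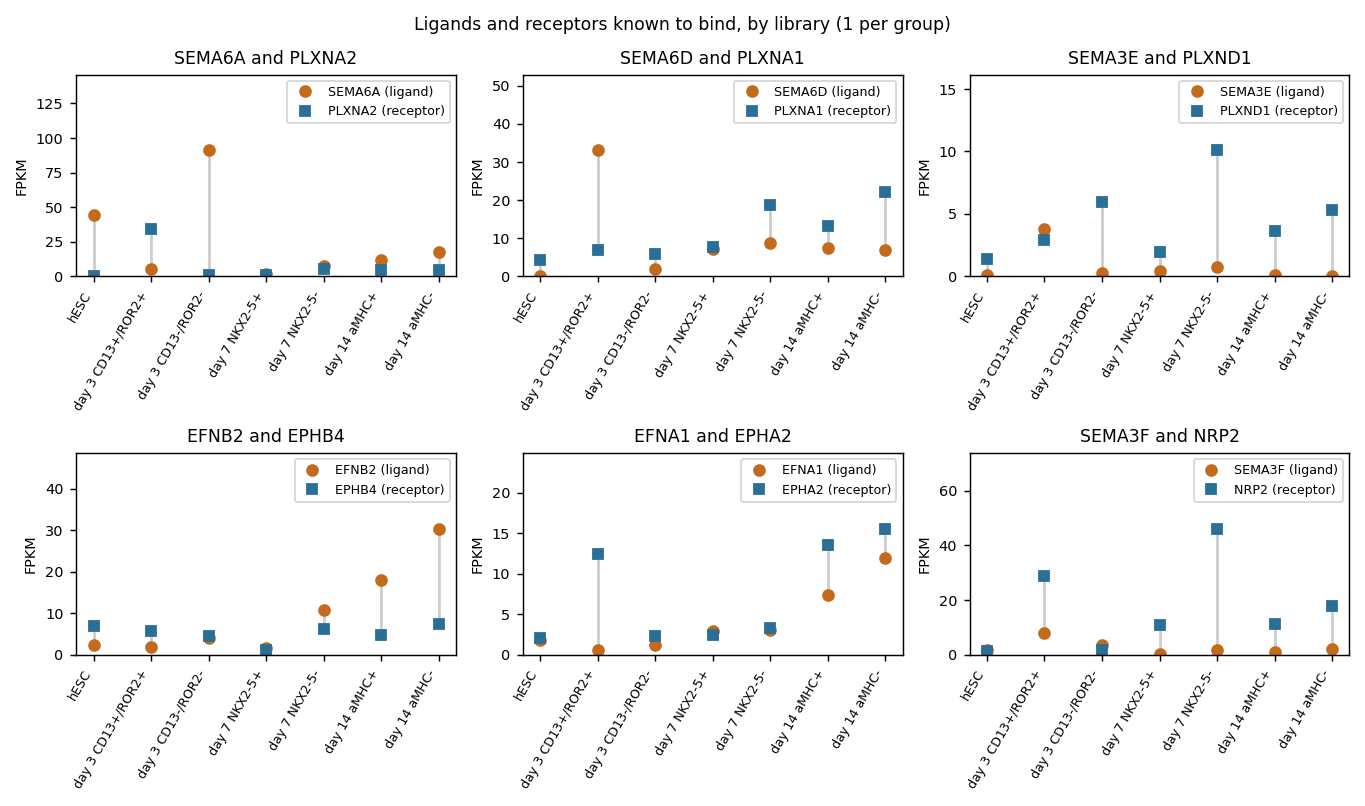
FPKM of 6 ligands (circles) and a receptor each is known to bind (squares) in the 7 libraries, joined by grey lines. SEMA6A and PLXNA2 are high in different day 3 fractions, and EFNA1 and EPHA2 are both at their highest in day 14 aMHC- (11.9 and 15.6 FPKM).

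The highest library of each gene was counted for the 41 members that reached 2 FPKM. Day 14 aMHC- held 15 of them (36.6%, beside 26.3% of all genes of that level), day 3 CD13+/ROR2+ 8 (19.5%, beside 14.1%), day 3 CD13-/ROR2- 7 (17.1%, beside 17.9%), day 7 NKX2-5- 4 (9.76%, beside 8.93%), hESC and day 7 NKX2-5+ 3 each (7.32%, beside 18.5% and 4.65%) and aMHC+ 1 (2.44%, beside 9.58%). The hESC genes were EPHA1, SEMA3A and SEMA4D, and the aMHC+ gene was SEMA6C at 2.33 FPKM. SEMA3A, the secreted repellent that acts through NRP1, was the steadiest of the class 3 semaphorins, between 2.42 FPKM in day 3 CD13+/ROR2+ and 6.66 in hESC (2.75-fold). PLXNB1 moved within 2.71-fold, from 1.07 to 2.91 FPKM. Late and low were SEMA3D (2.32 FPKM at most, in aMHC-), EPHA3 (4.11 in aMHC- against 0.0332 in hESC) and PLXNA3 (7.44 in aMHC- against 0.44 in hESC).

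The 12 members that stayed under 2 FPKM everywhere were EPHA5, EPHA6, EPHA8, EPHA10, EPHB1, EPHB6, SEMA3B, SEMA3G, SEMA4F, SEMA4G, PLXNB3 and PLXNC1. EPHA10 was at most 0.0248 FPKM and EPHA5 at most 0.0549. Of the 53, 6 were listed at 0 in at least 1 library and none in all, and a listed 0 can be a failed estimate. In RefSeq 23 members overlap another gene, among them SEMA6A with the antisense genes SEMA6A-AS1 and SEMA6A-AS2, SEMA5A, EPHA1 and EPHA2 with 1 antisense gene each, and EFNA4 with read-through transcripts of its neighbours. The library kit keeps no strand, so reads from such pairs cannot be told apart.

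Related genes were taken from 3 lists: co-receptors and shared ligands, intracellular effectors and other guidance families. In day 3 CD13+/ROR2+ over CD13-/ROR2-, 1 of 11 co-receptor genes of at least 5 FPKM was higher and 1 lower, 0 of 26 effectors were called, and 2 of 9 genes of other guidance families were higher, where 3.69% of all genes were higher and 2.54% lower. CHL1, a cell adhesion partner of neuropilins, was at 5.88 against 0.337 FPKM, NTN4, a netrin, at 7.01 against 0.329, and FLRT3, a ligand of UNC5 receptors, at 17.6 against 0.843, whereas the VEGF receptor gene FLT1 was at 4.47 against 22.4. Effectors such as RHOA (226 against 170 FPKM) and cofilin (CFL1, 106 against 49.6) were abundant in both. Over hESC, the same CD13+/ROR2+ library had CHL1, NTN4 and FLRT3 higher and DPYSL3 lower (7.7 against 56.5 FPKM), where 4.5% of all genes were higher and 2.54% lower. CD13-/ROR2- over hESC had 0 genes of the 3 lists called, where 1.45% of all genes were higher and 1.17% lower. Whether the members differ from these lists was not tested.

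The SLIT ligands are secreted repellents of ROBO receptors. Against the day 3 mesoderm (0.535 FPKM), SLIT2 was at 19.4 FPKM in NKX2-5+ and 36.9 in NKX2-5-, and SLIT3 at 15.7 and 36.0 against 3.08. SLIT1 stayed low, at 0.143 and 0.0325 against 0.0718, and FLRT2, another ligand of UNC5 receptors, was at 27.8 in NKX2-5- against 2.6 (10.7-fold, beside 11.7-fold for SLIT3). In day 14 aMHC+ and aMHC- SLIT2 was at 64.3 and 83.6 FPKM, while its receptor gene ROBO1, at 33.3 FPKM in the day 3 mesoderm, was at 2.32 and 3.76. In NKX2-5+ over the day 3 mesoderm, 2 of 12 genes of these families were higher and 2 lower, 3 of 10 co-receptor genes were lower (L1CAM, CHL1 and PTK7) and 0 of 24 effectors were called, where 4.38% of all genes were higher and 9.09% lower. In NKX2-5- 2 of 26 effectors were higher, DPYSL3, a collapsin response mediator, at 51.5 against 7.7 FPKM, and MICAL2, of the MICAL family of actin oxidases, at 28.2 against 1.5, while CHL1 was the 1 of 11 co-receptor genes that was lower and SLIT2, SLIT3 and FLRT2 were the 3 of 12 family genes that were higher. Of all genes 5.35% were higher and 3.69% lower there. In the day 7 pair, 2 of 24 effectors were lower in NKX2-5+, RND3 (0.363 against 6.05 FPKM) and the filamin gene FLNA (11.9 against 69.2), with 1 of 9 co-receptor genes (FLT1) and 2 of 10 family genes (FLRT2 and FLRT3), where 5.42% of all genes were lower. In aMHC+ over day 7 NKX2-5+, 3 of 25 effectors were higher, RRAS, a small GTPase that plexins inactivate (28.4 against 3.12 FPKM), DPYSL5 (6.8 against 0.243) and DPYSL4 (7.93, listed at 0 on day 7), as was 1 of 9 co-receptor genes, FLT1 (8.07 against 1.2), with 0 of 11 family genes called and 7.68% of all genes higher. No gene of the 3 lists was called in the day 14 pair, where 0.648% of all genes were higher in aMHC+ and 0.35% lower. Calls in these lists were not repeated after median-ratio scaling. Close to the limit were the log2 ratios of PTK7 (-2.08) and SLIT3 (2.03) in NKX2-5+ over the day 3 mesoderm. FLT1 in aMHC+ over NKX2-5+ (2.05) was close to it too.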

How the data were processed

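Gene-level RNA-seq values of 7 libraries were used, 1 per group, with groups taken from the sample titles. The authors deposited 1 table of FPKM values. Per the submitters' processing notes, Cufflinks and hg19 were used; no version, aligner or annotation is named there. TruSeq RNA v2 libraries of cells sorted 2 times were read on one end, per the labels' protocols; the kit does not mark strand. The table holds 23368 genes, of which 106 are blank in all columns and were left out.

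In all, 8 comparisons used log2 of (FPKM + 1) ratios over the whole table, with Python 3.11.15 and pandas 2.3.3. A call needed a log2 ratio of 2 in size and 5 FPKM in the higher library. Shares are over genes with 5 FPKM or more in one library or both. Alternatives were pseudocounts of 0.1 and 5, no minimum FPKM, median-ratio scaling, equal sums and a 2-fold limit. Promoter windows came from RefSeq (GRCh38.p14). Relative depth is the most frequent ratio of low values. The call rule was run on simulated data with large changes put in, which checks the code and not the spread between libraries. Named with all values are the members called at least once or of at least 10 FPKM somewhere (22). Another 19 are given by range or by their highest library, and 12 stayed under 2 FPKM. The members and lists were chosen with earlier results of these data known.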

Additional observations from a re-analysis of the deposited data

How the results depend on the processing

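Of 33 pairs of a gene and a comparison that were called, 33 were still called with a pseudocount of 0.1, 33 without a minimum FPKM, 26 after median-ratio scaling (7780 genes), 27 at equal sums without 1706 small RNA and histone symbols, and 9 with a pseudocount of 5. No ratio changed sign. The 9 pairs called under each of these are PLXNA2, NRP2, SEMA6A and SEMA6D in day 3 CD13+/ROR2+ over hESC and over CD13-/ROR2-, and PLXNA2 in day 7 NKX2-5+ over the day 3 mesoderm.

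Counts of guidance genes that moved by over 1.5 times follow, each with the share of all genes under the same rule. With a pseudocount of 5, day 3 CD13+/ROR2+ had 3 higher (1.94%) and 1 lower (0.784%) than hESC, and 3 higher (1.7%) than CD13-/ROR2-. Day 7 NKX2-5+ had 1 lower (3.37%) than the day 3 mesoderm, NKX2-5- 0 higher (2.24%) and 0 lower (1.63%), the day 7 pair 0 lower (1.71%), and aMHC+ over day 7 NKX2-5+ 0 higher (3.05%). With a pseudocount of 0.1, 8 were lower in day 7 NKX2-5+ (12.7%) and 4 in NKX2-5- (5.03%) than in the day 3 mesoderm, 7 lower in the day 7 pair (7.79%), and 5 higher in aMHC+ over day 7 NKX2-5+ (11.3%). Without a minimum FPKM, 1 was higher in day 7 NKX2-5+ over the day 3 mesoderm (1.2%), EPHA7. Median-ratio scaling gave 1 higher (6.84%) and 2 lower (4.77%) there, 1 lower in the day 7 pair (3.62%) and 1 higher in aMHC+ over day 7 NKX2-5+ (3.61%). Equal sums gave 2 higher (6.71%) and 2 lower (4.27%), 1 lower (2.9%) and 1 higher (2.01%) in the same comparisons.

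With a 2-fold limit, 4 were lower in day 3 CD13+/ROR2+ than in hESC (8.77%) and 6 lower than in CD13-/ROR2- (9.24%), and 4 were higher (8.41%) and 1 lower (7.12%) in CD13-/ROR2- than in hESC. That limit also gave 11 lower in day 7 NKX2-5+ (38.3%), and 5 higher (11.0%) and 7 lower (15.3%) in NKX2-5-, than in the day 3 mesoderm. It gave 10 lower in the day 7 pair (18.3%), and 10 higher (35.4%) and 1 lower (3.13%) in aMHC+ over day 7 NKX2-5+. A smaller pseudocount, a lower limit and no minimum loosen the rule by construction; the cause of the other shifts was not tested. No paired analysis was possible because each group has 1 library. Depth limits values near 1 FPKM most in day 7 NKX2-5+.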
